A study of Homo sapiens with 8 samples.

Results

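The regions described here are the open chromatin regions of human chromosomes 3, 13 and 18, chromosomes among those that the study named as holding clusters of EZH2 target genes (it also named chromosome 6, not described here). Overlapping peaks of all 8 deposited ATAC-seq peak lists were merged, and a merged region was kept where at least 2 lists held a peak in it. This gave 7515 regions of 61878 on chromosomes 1 to 22 and X (12.1%), of which 4117 were on chromosome 3, 2147 on chromosome 13 and 1251 on chromosome 18. Membership used position and the number of lists, and not fold or gene content. It bears on loss, since 649 regions were kept through the pair of WT lists alone and so are closed in every mutant by construction. The main loss shares are therefore given with and without these 649 regions, and the others count them.

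The peaks come from HEK293T cells, a transformed human embryonic kidney line, that stably expressed an introduced EZH2 gene. The WT line carried unmutated EZH2, the Y641F and A677G lines carried the mutants that the study classed as gain of function (GOF), and the H689A/F667I line carried a double mutant classed as loss of function (LOF). Each line was measured in 2 libraries, which the study describes as independent biological replicates, and the labels name no treatment. In all 4 lines the introduced gene came on top of the endogenous EZH2 of HEK293T, which the WT line keeps as well, and each line was made by lentiviral transduction and blasticidin selection aimed at a monoclonal population, so that a line may be 1 clone and the effect of a mutant and that of its clone cannot be told apart.

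EZH2 is the enzyme of Polycomb repressive complex 2 and adds methyl groups to lysine 27 of histone H3, and nucleosomes trimethylated there mark silent, compact chromatin around developmental genes. ATAC-seq cuts accessible DNA with the Tn5 transposase, and stretches with many insertions, mostly promoters, enhancers and insulators, are called as peaks. Human chromosomes 13 and 18 are known for few genes and long gene deserts, whereas chromosome 3 holds gene-rich stretches on both arms. A region is called open below where a library's list holds a peak in it and closed where it holds none, which is not the same as no signal. In bulk libraries, fewer cells with a region open and less openness per cell cannot be told apart.

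The libraries differed in the number of peaks before any comparison of chromosomes. The WT lists held 64923 and 62514 peaks, the H689A/F667I lists 47840 and 48755, the A677G lists 38016 and 46358 and the Y641F lists 26350 and 36598, with Y641F replicate 1 the shortest of the 8. The files hold no read counts, so the depth behind each list is unknown and its part in these differences was not tested. Among markers of HEK293T, the promoters of VIM, KRT8, PAX2, NEFM and NEFL were open in 8 of 8 libraries and that of KRT18 in 7. Among genes of other cell types, the blood genes PTPRC and CD3E and the liver gene ALB were open in 0 libraries, but the muscle gene MYOD1 was open in 8 and the fibroblast gene COL1A2 in 5, so an open promoter alone did not separate cell types.

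Regions of 2 kinds are shown for each chromosome, because they mark both ends of what was seen: the strongest region that was open in all WT and H689A/F667I libraries and closed in all Y641F and A677G libraries, and the strongest non-exonic region away from gene starts that was open in all 8. Each sequence is the reference sequence of the plus strand of hg38, 5′ to 3′, and capitals mark matches to the AP-1 letters TGANTCA or the GATA letters AGATAA, searched on both strands. Those closed in the GOF lines lay in an intron of FOXP1, a forkhead transcription factor (chr3:71531268-71531467), upstream of FREM2, a basement membrane protein (chr13:38662502-38662701), and in an intron of MAPK4, an atypical MAP kinase (chr18:50644894-50645175). Those open throughout lay at the edge of the centromeric gap of chromosome 3 (chr3:93470481-93470680), in an intron of PCDH9, a protocadherin (chr13:66834913-66835112), and 28471 bp from CCBE1, a gene of lymphatic development (chr18:59402369-59402568).
FOXP1 intron: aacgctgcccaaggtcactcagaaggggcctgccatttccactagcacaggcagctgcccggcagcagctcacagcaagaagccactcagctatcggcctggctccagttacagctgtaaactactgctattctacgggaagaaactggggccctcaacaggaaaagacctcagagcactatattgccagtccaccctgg
Chromosome 3 gap edge: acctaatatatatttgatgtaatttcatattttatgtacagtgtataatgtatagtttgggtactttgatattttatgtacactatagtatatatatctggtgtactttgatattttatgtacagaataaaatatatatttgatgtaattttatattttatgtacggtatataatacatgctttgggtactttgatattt
FREM2 upstream: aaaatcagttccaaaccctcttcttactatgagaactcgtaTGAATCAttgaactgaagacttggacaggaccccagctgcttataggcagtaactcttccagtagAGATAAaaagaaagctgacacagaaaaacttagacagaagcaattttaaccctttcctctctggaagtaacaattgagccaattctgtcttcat
PCDH9 intron: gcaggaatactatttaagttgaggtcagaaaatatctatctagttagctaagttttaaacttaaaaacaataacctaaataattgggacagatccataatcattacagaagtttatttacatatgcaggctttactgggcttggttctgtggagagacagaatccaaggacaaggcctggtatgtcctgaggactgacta
MAPK4 intron: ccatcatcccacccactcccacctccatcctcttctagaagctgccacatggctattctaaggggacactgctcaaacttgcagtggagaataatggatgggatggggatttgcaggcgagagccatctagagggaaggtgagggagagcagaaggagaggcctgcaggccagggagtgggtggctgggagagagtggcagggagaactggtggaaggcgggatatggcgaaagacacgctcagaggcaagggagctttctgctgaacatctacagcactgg
Near CCBE1: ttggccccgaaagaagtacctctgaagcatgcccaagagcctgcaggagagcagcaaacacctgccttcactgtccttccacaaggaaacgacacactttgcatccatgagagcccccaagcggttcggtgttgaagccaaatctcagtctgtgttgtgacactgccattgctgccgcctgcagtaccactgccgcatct
The FREM2 sequence held 1 AP-1 and 1 GATA match, and the other five held no match to any of the motifs searched. The sequence at the chromosome 3 gap edge had a GC content of 21.5% and repeated the 12 bases atattttatgta 4 times, and its fold over local background, 15.3 to 15.5 in the 8 libraries, was the highest of any region on the 3 chromosomes.

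Density of open regions and density of genes did not go together across the 3 chromosomes. Chromosome 3 held 20.8 regions and 5.45 protein-coding genes per Mb, chromosome 13 held 18.8 regions and 2.82 genes, and chromosome 18 held 15.6 regions and 3.31 genes, against 20.6 regions and 6.93 genes per Mb over the rest of the genome. Arms were divided at the longest stretch without a region, which ran from chr3:91485329-93470281 and from chr18:14950398-20971719, while chromosome 13 had no region before position 16123111 and is long arm only. The arms held 20 regions per Mb on 3p, 21.8 on 3q, 21.9 on 13q, 13 on 18p and 17.8 on 18q. Thus 13q, with 3.29 genes per Mb, was as densely open as 3q with 5.45.

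Of the 7515 regions, 1518 (20.2%) were promoters, within 1 kb of the start of a protein-coding gene, 573 lay in other exons, 3149 (41.9%) in introns and 2275 (30.3%) between genes. Promoters made up 26.3% of the regions on 3p, 21.3% on 3q, 13.1% on 13q, 33.3% on 18p and 19.3% on 18q. Regions open in all 8 libraries numbered 1963 (26.1%, against 30.4% of all kept regions), with 28.4% on chromosome 3, 22.4% on chromosome 13 and 25.1% on chromosome 18, and 1749 regions (23.3%) were open in just 2. The fold of a peak over its local background, column 7 of the lists, had a median over these regions between 3.75 and 3.90 in the 8 libraries, and the WT median by arm was 3.88 on 13q and up to 4.10 on 18p. The strongest regions after the chromosome 3 gap edge included the promoters of RUVBL1, an AAA ATPase of chromatin remodelling complexes, KBTBD8, a ubiquitin ligase adaptor, and THUMPD3, a tRNA methyltransferase.

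In each mutant line a somewhat larger part of the WT regions was lost on these chromosomes than elsewhere, by a margin that depended on the processing in Y641F. A lost region had a peak in each WT list and none in the lists of the mutant. Of 5646 regions open in both WT libraries, 2145 (38.0%, 95% Wilson interval 36.7 to 39.3) were lost in Y641F, 1421 (25.2%, 24.1 to 26.3) in A677G and 1002 (17.7%, 16.8 to 18.8) in H689A/F667I. The shares over the whole genome were 35.3%, 20.8% and 14.2%, and those over the rest of the genome 34.9%, 20.2% and 13.7%. Without the 649 regions kept through WT alone, which are 30.3%, 45.7% and 64.8% of the regions lost, the shares were 29.9% (28.7 to 31.2), 15.4% (14.5 to 16.5) and 7.06% (6.39 to 7.81), against 29.0%, 13% and 5.80% on the rest of the genome, and the intervals of the Y641F shares, with 28.5 to 29.4 for the rest, overlapped. In A677G and H689A/F667I each chromosome stayed above the rest of the genome in 13 of 13 alternatives of processing or left-out library. In Y641F it did not in 1 of 13 for chromosome 3, 3 for chromosome 13 and 1 for chromosome 18, which were 43.7% against 44.7% at a −log10 q of at least 5 on chromosome 3, 27.9% against 29.0% with at least 3 lists, 32.6% against 33.3% without WT replicate 1 and 33.3% against 33.8% without WT replicate 2 on chromosome 13, and 11.1% against 11.5% with equal peak number on chromosome 18. The intervals cover counting error alone, and since a loss share joins both libraries of a line, there is 1 value a line and it was not tested.

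The 3 chromosomes were close to each other in Y641F and less so in the other lines. In Y641F, the loss was 38.5% (36.9 to 40.2) on chromosome 3, 36.8% (34.4 to 39.3) on chromosome 13 and 38.0% (34.9 to 41.1) on chromosome 18. In A677G it was 24.4% (23 to 26.0), 28.0% (25.8 to 30.4) and 23.3% (20.7 to 26.1), with chromosome 13 highest. The H689A/F667I line lost 17.1% (15.8 to 18.4), 19.6% (17.6 to 21.7) and 17.2% (15 to 19.8). By arm, 3p lost more than 3q in all 3 lines, at 41.6% against 35.9% in Y641F, 26.3% against 22.9% in A677G and 19.8% against 14.8% in H689A/F667I. Without the regions kept through WT alone, the values were 32.3% against 29.0%, 14.5% against 14.6% and 7.07% against 5.63%, so that the order was gone in A677G, and without WT replicate 2 it was turned there, at 18.5% against 19.6%. The 165 WT regions of 18p lost 35.2%, 21.2% and 17.0%, within the intervals of 18q at 38.6%, 23.7% and 17.3%.

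Gains were few. Regions open in both libraries of a mutant and in no WT library numbered 88 in H689A/F667I, 60 in A677G and 50 in Y641F, while 1.09%, 0.637% and 0.428% of all kept regions of the genome were gained. Per 100 WT regions these were 1.56, 1.06 and 0.886, against 1.37, 0.777 and 0.5 on the rest of the genome. Chromosome 13 held 43, 25 and 28 of them although it held the fewest genes per Mb, and 3p held 0 in Y641F. A single region was gained in all 3 lines, in an intron of PPM1L, a protein phosphatase (chr3:161028549-161029105), with folds of 4.09 and 4.59 in H689A/F667I, 4.48 and 4.35 in A677G and 3.75 and 3.52 in Y641F. Regions lost in all 3 lines are the 649 kept through WT alone, 11.5% of WT regions against 8.74% genome-wide, a count that the choice of members fixes.

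The order of the lines by loss was the reverse of their order by peak number. When the 26350 strongest peaks of each list were compared, Y641F lost 12.6%, A677G 8.27% and H689A/F667I 7.40% on chromosome 3, on chromosome 13 the shares were 11.7%, 9.36% and 6.43%, and on chromosome 18 they were 11.1%, 7.0% and 8.45%, where H689A/F667I passed A677G. Where a region had to be open in at least 3 lists, the loss in H689A/F667I fell to 6.27% on chromosome 3, 8.23% on chromosome 13 and 8.04% on chromosome 18.

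The share of a library's open regions that lay on a chromosome sets every library to the same total, although it still depends on which weak peaks a list holds. It also counts the regions kept through WT alone, which are closed in every mutant by construction. For 3p this share was 3.03% and 3.05% in WT, 2.75% and 2.80% in H689A/F667I, 2.73% and 2.75% in A677G and 2.61% and 2.72% in Y641F. All mutant libraries were below both WT libraries, and the LOF libraries sat between WT and GOF. For a comparison with more libraries, WT and LOF were pooled here, which the study did not do. The 4 GOF libraries had a mean of 2.70% ± 0.0631 (SD, n = 4) and the 4 WT and LOF libraries 2.91% ± 0.156 (SD, n = 4), a difference of -0.207 percentage points with a two-sided exact permutation p of 0.0286, the smallest that 4 against 4 can give, and an adjusted p of 0.200 over 7 tests. The difference therefore missed the threshold after correction. The permutation also exchanged single libraries, although each set of 4 is made up of pairs from the same line, which are not independent lines. With equal peak number it was -0.119 points and at a −log10 q of at least 5 it was -0.00332, and a mutant against WT alone, 2 libraries against 2, cannot go below 0.333.

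Chromosome 13 moved differently between the lines. Its share was 3.16% and 3.14% in WT, 2.99% and 3.06% in H689A/F667I, 2.86% and 2.90% in A677G and 3.36% and 3.31% in Y641F. Both Y641F libraries were above WT and all others below it. The GOF mean was 3.11% ± 0.263 (SD, n = 4) and that of WT and LOF 3.09% ± 0.0756 (SD, n = 4), a difference within the spread of the GOF libraries (exact permutation p = 0.857). The remaining comparisons gave exact permutation p values of 0.114 for chromosome 3, 0.371 for chromosome 18, 0.6 for 3q, 0.486 for 18p and 0.171 for 18q. With equal peak number the differences of chromosome 3, chromosome 18, 3q, 18p and 18q changed sign.

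**Figure D1:**
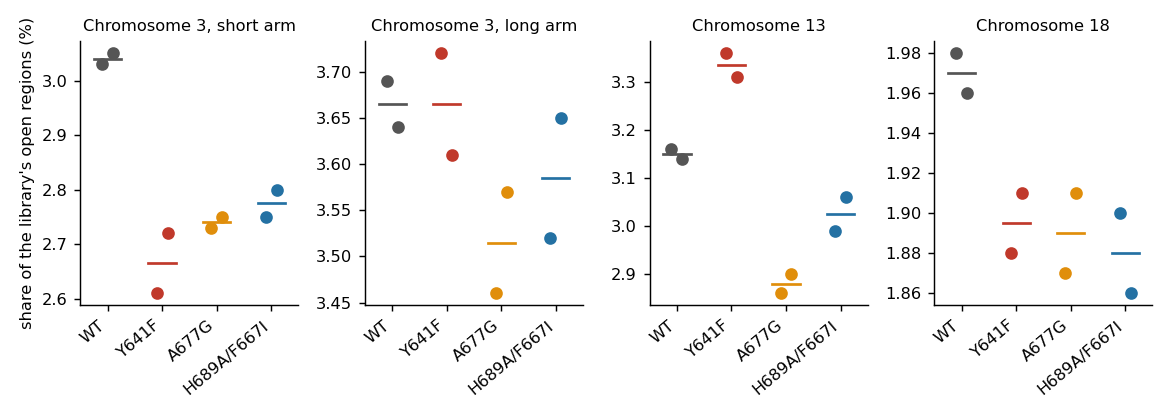
Share of each library's open regions (percent, y axis) on 3p, 3q, chromosome 13 and chromosome 18 by line (x axis), where a point is a library and a line the mean of 2. On 3p the WT points, at 3.03 and 3.05, are above all mutant points, and on chromosome 13 the Y641F points, at 3.36 and 3.31, are the highest.

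Loss was concentrated away from promoters. On chromosome 3 Y641F lost 12.5%, A677G 6.13% and H689A/F667I 4.16% of the promoters, against 48.6%, 31.6% and 22.1% of the other regions there. On chromosome 13 the promoters lost 12.7%, 7.12% and 4.87% against 42.3%, 32.8% and 22.9%, and on chromosome 18 they lost 15.7%, 7.26% and 4.84% against 46.0%, 29.0% and 21.7%. The rest of the genome was much alike for promoters and in Y641F, with 13.7%, 5.94% and 3.79% of promoters lost against 45.4%, 27.3% and 18.6% of other regions. Outside promoters, the 3 chromosomes together lost more than the rest in A677G, 31.5% (30.1 to 32.9), and in H689A/F667I, 22.3% (21.0 to 23.5). Without the regions kept through WT alone, the promoters of the 3 chromosomes lost 10.6%, 3.88% and 1.73% and the other regions 37.4%, 19.9% and 9.12%. Over the 3 chromosomes, promoters made up 8.72% (7.60 to 9.99) of what Y641F lost against 48.8% (46.7 to 50.8) of what it retained, 6.54% against 40.7% in A677G and 6.29% against 36.3% in H689A/F667I. On the rest of the genome they made up 13% of what Y641F lost and 56.5% of what it retained. Lost regions were also narrower and weaker in WT: on chromosome 3 those lost in Y641F had a median WT width of 410 bp and fold of 3.70, and those retained 980 bp and 4.49. In 4 classes of WT width of about equal size, from at most 389 bp to over 990 bp, the loss in Y641F on chromosome 3 was 65.4%, 48.3%, 29.1% and 6.77%, where the rest of the genome lost 65.2%, 45.7%, 23.8% and 5.72%.

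Counted by gene, most promoters kept their peak. Of 1670 protein-coding genes on the 3 chromosomes, 1294 had a promoter open in both WT libraries and 1113 (66.6%) one open in all 8. In Y641F, 79 of the 1294 (6.11%) were lost, against 6.56% genome-wide. In A677G, 24 (1.85%) were lost against 2.05%, and in H689A/F667I, 25 (1.93%) against 1.42%. These shares were near the background in both GOF lines.

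In bins of 5 Mb, the relation of loss in Y641F to gene density had opposite signs on chromosome 13 and on the other two. Bins with at least 30 regions open in both WT libraries numbered 38 of 40 on chromosome 3, 16 of 23 on chromosome 13 and 13 of 17 on chromosome 18. Across them, the loss in Y641F and the number of genes had a Pearson r of -0.520 and a Spearman rho of -0.609 on chromosome 3 (n = 38 bins), 0.764 and 0.802 on chromosome 13 (n = 16) and -0.648 and -0.688 on chromosome 18 (n = 13). In A677G r was -0.527, 0.239 and -0.527, and in H689A/F667I it was -0.458, 0.233 and -0.619. Without the regions kept through WT alone, r in Y641F was -0.474, 0.670 and -0.497. In A677G it was then -0.474, -0.148 and -0.125, and in H689A/F667I -0.356, -0.449 and -0.335. The sign on chromosome 13 thus held in Y641F and turned in A677G and H689A/F667I. The rho of Y641F on chromosome 18 was then -0.228. The bins are not independent and share the same libraries, and the share of promoters among WT regions had an r of 0.807 with the loss in Y641F on chromosome 13 and -0.460 on chromosome 3, so these values describe the pattern and no p is given.

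A division of the bins at their median gene number gave the same signs in Y641F on chromosomes 3 and 13. On chromosome 3, bins at or below the median gene number lost 44.3% (41.7 to 47.0) in Y641F and bins above it 34.2% (32.1 to 36.4). On chromosome 13 the gene-poor bins lost 29.9% (26.7 to 33.2) and the gene-rich bins 42.7% (38.9 to 46.7), although promoters were 7.1% of the WT regions in the former and 31.2% in the latter. Without the regions kept through WT alone these became 23.6% (20.6 to 26.9) and 33.0% (29.1 to 37.2) on chromosome 13, and 35.0% and 27.3% on chromosome 3. On chromosome 18 the values in Y641F, with all WT regions, were 38.6% and 36.3%, with overlapping intervals. In A677G the gene-poor bins of chromosome 13 lost 25.4% and the gene-rich bins 28.2%. Without the regions kept through WT alone these became 18.8% and 16.0%. The number of open regions followed gene number on chromosome 3 (r = 0.768) but not on chromosome 13 (r = -0.382) or chromosome 18 (r = 0.186).

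**Figure D2:**
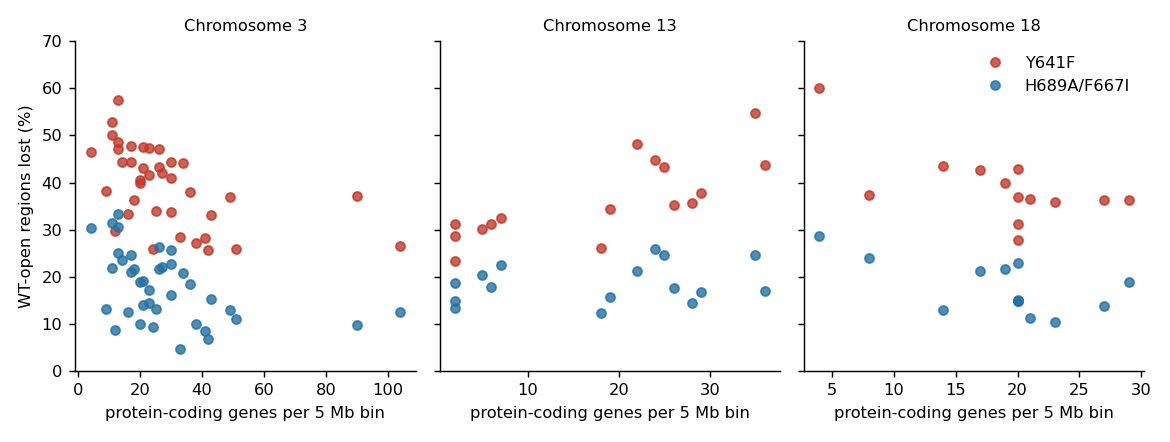
Share of regions open in both WT libraries that were lost (percent, y axis) against protein-coding genes per 5 Mb bin (x axis), with a point per bin with at least 30 WT regions, for Y641F and H689A/F667I. On chromosome 13 the Y641F points rise with gene number (r = 0.764), and on chromosomes 3 and 18 they fall (r = -0.520 and -0.648).

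The bins with the highest and lowest mean loss over the 3 lines were then taken up, as a description, since the loss chose them. On chromosome 3 the highest were chr3:70000001-75000000 and chr3:85000001-90000000, both in 3p. In the first, Y641F lost 57.6% (47.7 to 66.8) of 99 WT regions, A677G 45.5% and H689A/F667I 33.3%, and the bin held 13 genes, 11 of them open in WT. Of these losses 27 were regions kept through WT alone, and without them the shares were 41.7%, 25% and 8.33%. The second lost 52.9%, 37.3% and 31.4% of 51, and without such regions 35.1%, 13.5% and 5.41%. Both are gene-poor, while the lowest bins, chr3:120000001-125000000 with 42 genes and chr3:185000001-190000000 with 33, lost 25.6%, 12.2% and 6.67%, and 28.4%, 13.6% and 4.55%.

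In the bin of highest loss the promoters themselves mostly stayed open. CNTN3, a contactin of neuronal adhesion, was lost in Y641F, with folds of 6.19 and 4.71 in WT, 4.42 and 3.69 in A677G and 3.74 in 1 H689A/F667I library. PROK2, a secreted prokineticin, was lost in Y641F, with 3.36 and 3.70 in WT, 3.74 in 1 A677G and 3.17 in 1 H689A/F667I library. GPR27, an orphan receptor, was lost in A677G. FOXP1, PDZRN3, a ubiquitin ligase, and PPP4R2, a phosphatase subunit, were open in all 8. In the other high bin all 9 WT-open promoters kept a peak in each line, among them those of EPHA3, an ephrin receptor, CADM2, an adhesion molecule, and CGGBP1, which binds CGG repeats.

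In the low bins of chromosome 3 a promoter without a peak was the exception. CRYGS, a lens crystallin, had 4.88 and 4.19 in WT and 4.82 in 1 A677G library, and was lost in Y641F and H689A/F667I. The other promoters named there, of MYLK (myosin light chain kinase), GOLGB1 (a Golgi protein), NDUFB4 (respiratory chain), CCDC14 and SEC22A, and of EHHADH (peroxisomal oxidation), RPL39L, MAP3K13, SENP2 and TMEM41A, were open in all 8 libraries.

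On chromosome 13 the extremes were turned around when all WT regions were counted. The highest bins were chr13:35000001-40000000, with 24 genes and a loss of 44.8%, 43.1% and 25.9%, and the gene-rich chromosome end chr13:110000001-114364328, with 35 genes and 54.8%, 34.2% and 24.7%. The lowest were chr13:75000001-80000000, with 18 genes and 26.1%, 20.9% and 12.2%, and chr13:80000001-85000000, with 2 genes and 23.3%, 21.7% and 13.3%. At the chromosome end UPF3A, of nonsense-mediated decay, LAMP1, a lysosomal membrane protein, and GRTP1 were lost in Y641F. LAMP1, for example, had folds of 3.54 and 3.64 in WT, 3.24 and 3.73 in H689A/F667I and 3.16 and 3.73 in A677G. CARS2, TFDP1 and TUBGCP3 there were open in all 8. In the bin at chr13:35000001-40000000, SERTM1, SUPT20H, UFM1, COG6 and CCNA1 were open in all 8 and DCLK1, a neuronal kinase, in 7, so each of these genes kept an open promoter in every line. Loss of single promoter regions was not counted for this bin. The 2 genes of the lowest bin, SLITRK1, a neuronal transmembrane protein, and SPRY2, an inhibitor of growth factor signalling, were open in all 8, as were COMMD6, EDNRB, NDFIP2 and UCHL3 in the neighbouring bin.

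On chromosome 18 the highest bins were chr18:40000001-45000000, with 4 genes and a loss of 60% (43.6 to 74.4), 37.1% and 28.6% of 35 WT regions, and chr18:35000001-40000000, with 42.6%, 28.7% and 21.3% of 108. The lowest were the short-arm end chr18:1-5000000, with 27.7%, 23.4% and 14.9%, and chr18:60000001-65000000, with 35.9%, 17.9% and 10.3%. SYT4, a synaptotagmin in the first of these, had folds of 3.94 and 5.30 in WT and 3.4 in 1 A677G library, and was lost in Y641F and H689A/F667I, whereas PIK3C3, a lipid kinase of autophagy, and SETBP1 were open in all 8. CDH20, a cadherin in the last, had 3.66 and 3.15 in WT and 3.61 and 3.38 in A677G and was lost in Y641F and H689A/F667I, and HMSD was lost in Y641F. ZNF397, C18orf21, RPRD1A, ZSCAN30 and ZNF24 in the second bin, and USP14, CLUL1 and MYL12A at the short-arm end, were open in all 8, while MYOM1 and DLGAP1 were open in 7.

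**Figure D3:**
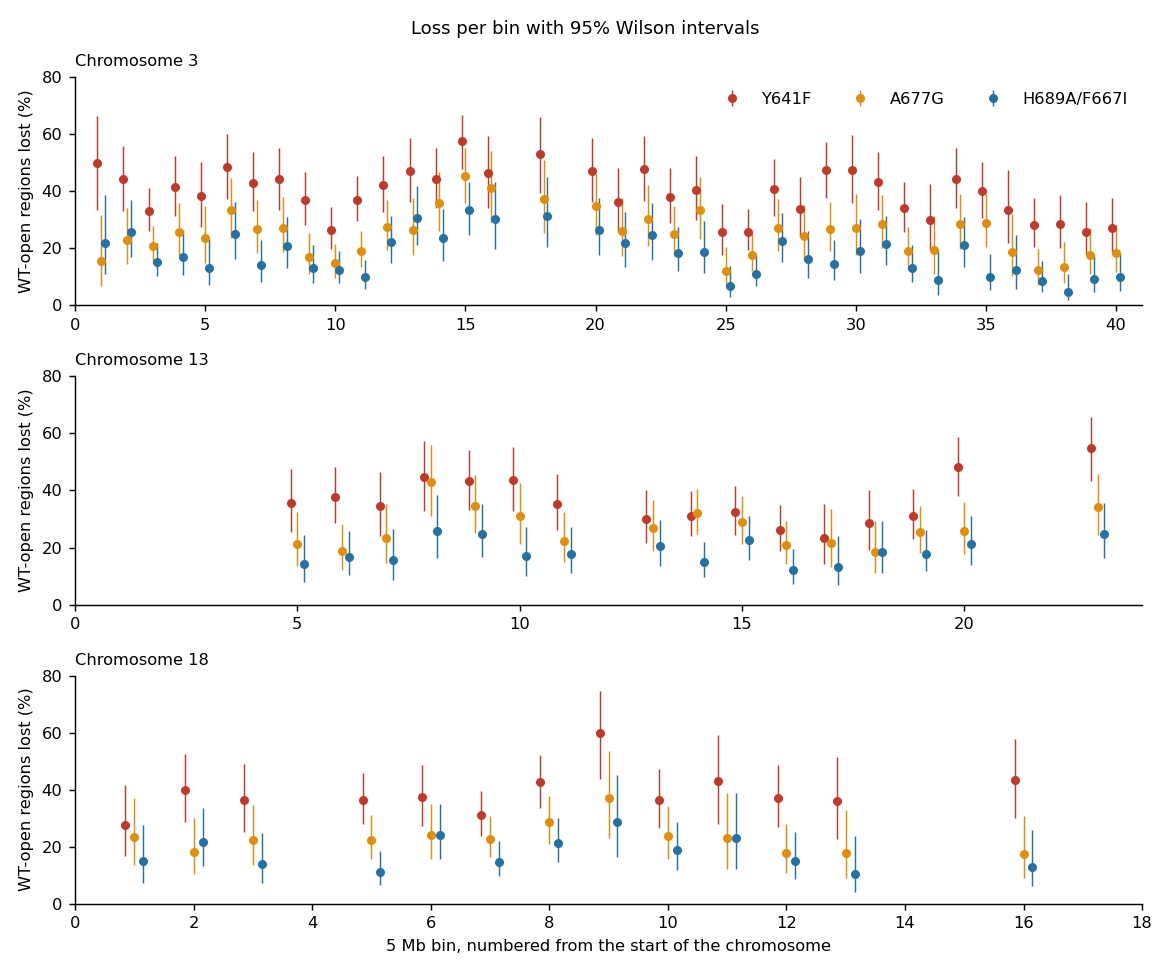
Share of regions open in both WT libraries that were lost in each mutant (percent, y axis) in 5 Mb bins along chromosomes 3, 13 and 18 (x axis), with 95% Wilson intervals. On chromosome 3 the highest loss in Y641F is that of bin 15, at 57.6%, and bins 16 and 17 of chromosome 13 are low, at 26.1% and 23.3%.

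Whether a bin's share of a library's open regions differed from WT was tested with limma over 579 bins of the genome, 74 of them on the 3 chromosomes. The shares count the regions kept through WT alone, closed in every mutant by construction. No bin test with all 8 libraries left them out. In Y641F, 16 of the 74 bins (21.6%) passed an adjusted p of 0.05, 5 higher and 11 lower, against 15.2% of all bins, 5.70% higher and 9.50% lower. In A677G, 9 were lower and 0 higher, 12.2% against 3.28% of all bins, of which 2.07% lower and 1.21% higher, and 25 bins had an unadjusted limma p under 0.05. In H689A/F667I, 1 was lower, against 0.173% of all bins, and 19 had an unadjusted limma p under 0.05. The split in Y641F depended on scaling: with libraries scaled to the median bin, which moved the median of all bins by 0.0722 on the log2 scale, 9 bins were higher and 9 lower, with equal peak number 7 and 3, and with a −log10 q of at least 5, 8 and 1. Of the 16 bins, 4 of the 14 that could be tested kept their call with equal peak number and 2 of 13 at the stricter q, and in A677G 0 bins were called with equal peak number. Each mutant is set against the same WT libraries, and without WT replicate 1 or WT replicate 2 the calls in Y641F fell to 1 and 0, those in A677G to 0 and 0 and those in H689A/F667I to 0 and 0. Without A677G replicate 1, 0 bins were called in A677G, and without A677G replicate 2, 4.

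Most of the lower bins of chromosome 3 lay in 3p, and bin 22, lower in A677G, in 3q. Bin 15, the FOXP1 bin chr3:70000001-75000000, held 108 and 101 open regions in WT, 56 and 65 in H689A/F667I, 46 and 48 in A677G and 22 and 39 in Y641F. As a share of the library this was 0.201% and 0.190% in WT, 0.131% and 0.150% in H689A/F667I, 0.134% and 0.119% in A677G and 0.0953% and 0.120% in Y641F, with no overlap between WT and any mutant. The log2 change was -0.87 in Y641F (SE 0.11, limma adjusted p = 0.000312), -0.63 in A677G (SE 0.11, adjusted p = 0.0223) and -0.48 in H689A/F667I (SE 0.11, adjusted p = 0.116). With equal peak number the change in Y641F was -0.56. Bins 8, 12, 13, 14 and 18 were lower in Y641F too, by log2 changes from -0.52 to -0.31, and bin 10 was higher, by 0.21, but bins 8, 12 and 14 changed sign with a −log10 q of at least 5 and bin 10 with equal peak number. In A677G, bins 14, 16 and 22 were also lower, by log2 changes of -0.40, -0.52 and -0.41.

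The 3p stretch from 55 to 90 Mb, delimited after its values were seen, gathers most of these bins. It held 583 regions and 83 genes. Its share of the library was 0.978% in both WT libraries and between 0.674% and 0.803% in the 6 mutant libraries. Of its WT regions Y641F lost 48.6%, A677G 35.9% and H689A/F667I 28.4%, against 36.8%, 22.5% and 15.2% on the rest of chromosome 3, and 0, 2 and 3 regions were gained there. The share of the library and the loss both count the regions kept through WT alone, closed in every mutant by construction. In the 7 bins of the stretch these made up 33.3% to 53.8% of the regions lost in Y641F. The range was 41.4% to 73.7% in A677G and 63.2% to 87.5% in H689A/F667I. The gap to the rest of chromosome 3 was not computed without them. Besides FOXP1 the stretch holds ROBO1 and ROBO2, receptors of axon guidance, whose promoters were open in all 8 libraries.

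Chromosome 13 had bins whose share of the library rose and bins whose share fell. Bin 14, chr13:65000001-70000000, holds PCDH9 and 2 genes in all, and held more open regions than any other bin of the 3 chromosomes, 258. It held 174 and 169 open regions in WT and 108 and 126 in Y641F, so that the number fell while the share of the shorter lists rose. Its share was 0.323% and 0.317% in WT, 0.341% and 0.347% in H689A/F667I, 0.295% and 0.328% in A677G and 0.460% and 0.384% in Y641F. Both Y641F libraries were above all others, and the log2 change was 0.39 in Y641F (SE 0.08, limma adjusted p = 0.00299), -0.04 in A677G (adjusted p = 0.805) and 0.10 in H689A/F667I (adjusted p = 0.597). The shares of bins 13, 16 and 17 rose in Y641F as well, by log2 values of 0.29, 0.37 and 0.40 (limma adjusted p = 0.0056, 0.000942 and 0.0021), while the regions open there numbered 128 and 125 in WT and 67 and 96 in Y641F in bin 13, 148 and 140 against 84 and 111 in bin 16 and 84 and 82 against 47 and 68 in bin 17. With equal peak number the changes of bins 13, 14, 16 and 17 were 0.71, 0.43, 0.20 and 0.56, with limma adjusted p of 0.00761, 0.0107, 0.058 and 0.0204, and with a −log10 q of at least 5 that of bin 17 was -0.29 (limma adjusted p = 0.331).

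Lower bins flanked them. Bin 12, chr13:55000001-60000000, had a share of 0.0472% and 0.0496% in WT, 0.0267% and 0.0287% in H689A/F667I, 0.0216% and 0.0282% in A677G and 0.0191% and 0.0197% in Y641F, which did not overlap. It fell by 1.32 on the log2 scale in Y641F (SE 0.18, limma adjusted p = 0.000386) and by 0.97 in A677G (adjusted p = 0.0241). Its 24 WT regions lost 75%, 62.5% and 50%, too few to rank it among the bins above. Of these 24, 12 were kept through WT alone and are closed in every mutant by construction. They made up 12 of the 18 regions lost in Y641F, 12 of the 15 in A677G and all 12 in H689A/F667I. The whole loss in H689A/F667I was thus fixed by the choice of members, and the log2 changes of the bin count the same 12 regions. Bins 8, 21 and 23 were lower in Y641F, by log2 changes of -0.40, -0.53 and -0.53, and bins 8, 9, 21 and 22 in A677G. Bin 22 was the only bin lower in H689A/F667I, at -1.14 (SE 0.20, limma adjusted p = 0.0236). It had 21 WT regions, of which H689A/F667I lost 11, and 9 of these 11 were kept through WT alone.

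**Figure D4:**
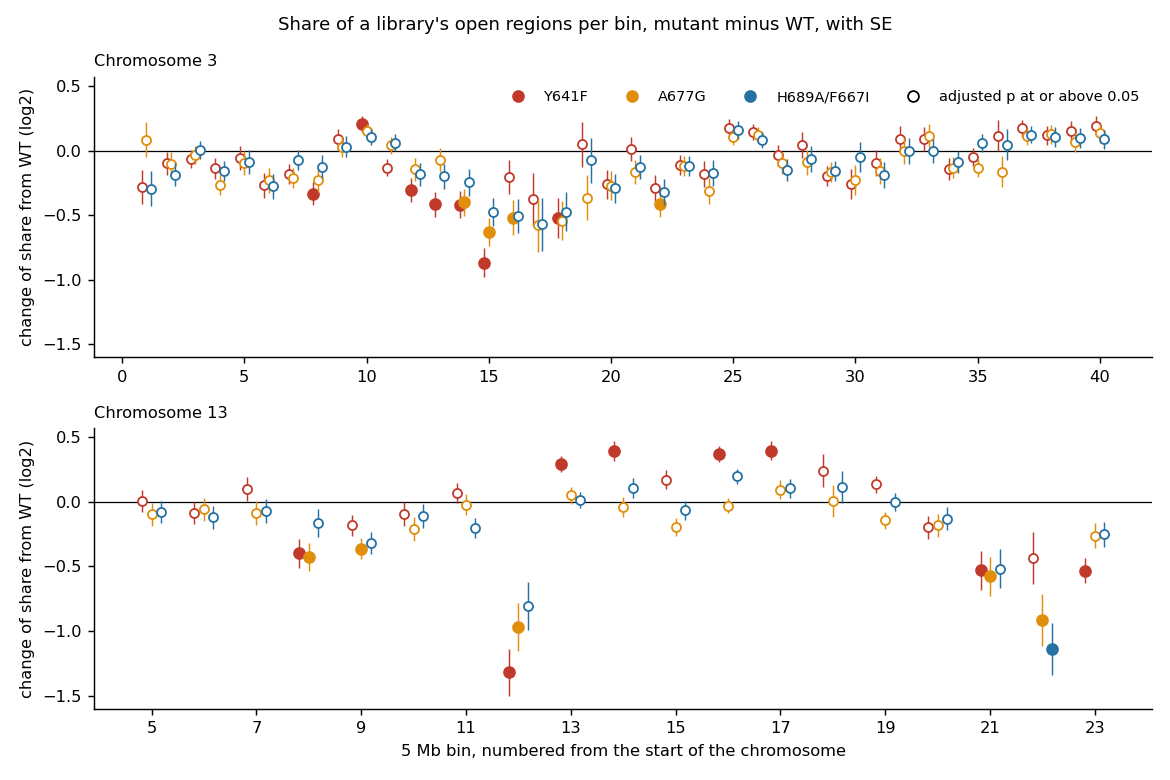
Change of each 5 Mb bin's share of the library's open regions from WT (log2, y axis) along chromosomes 3 and 13 (x axis, bin number) in the 3 mutants, with SE, filled points having a limma adjusted p under 0.05. Bin 15 of chromosome 3 lies at -0.87 and bin 12 of chromosome 13 at -1.32 in Y641F, and bins 13, 14, 16 and 17 of chromosome 13 lie above 0.

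The gene-poor stretch of 13q from 60 to 95 Mb, again delimited after its values were seen, held 1271 of the 2147 regions of the chromosome but 42 of its 323 genes, and promoters were 3.23% of its regions. Its share of the library was 1.67% and 1.61% in WT, 1.70% and 1.74% in H689A/F667I, 1.56% and 1.62% in A677G and 2.05% and 1.97% in Y641F, with Y641F alone clear of WT by more than the gap between libraries of a line. The rest of chromosome 13 went from 1.49% and 1.52% in WT to between 1.28% and 1.35% in the 6 mutant libraries. Outside promoters, Y641F lost 30.9% (27.4 to 34.5) of the WT regions of the stretch, A677G 27.0% and H689A/F667I 18.1%, against 56.4% (52.1 to 60.5), 39.8% and 28.8% on the rest of the chromosome. These shares count the regions kept through WT alone and were not computed without them for the stretch. The gene-poor bins of chromosome 13 described above contain the whole stretch. Without such regions, and with promoters included, they lost 23.6% in Y641F against 33.0% in the gene-rich bins. In A677G the values were 18.8% against 16.0% and in H689A/F667I 9.62% against 6.49%, so the order held in Y641F alone. The stretch gained 24, 24 and 39 regions against 4, 1 and 4. Its regions were weaker in WT, with a median fold of 3.56 against 4.11, and poorer in GC, with a median of 43.5% against 51.5%, and the part of either in the loss was not tested. Few regions of the stretch were open throughout, 228 (17.9%).

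On chromosome 18 a single bin passed the test, bin 16, chr18:75000001-80000000 near the end of the long arm. Its share was 0.101% and 0.100% in WT, 0.0941% and 0.0929% in H689A/F667I, 0.114% and 0.102% in A677G and 0.0699% and 0.0805% in Y641F. It was lower in Y641F, by a log2 change of -0.42 (SE 0.11, limma adjusted p = 0.0173), and differed between Y641F and A677G by -0.52. The bin holds SALL3, a zinc finger factor open in 7 libraries, and NFATC1, a calcium-regulated factor whose promoter was lost in Y641F.

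Between the mutants, a contrast added after the data were seen, the change from WT differed in 8 of the 74 bins for Y641F against A677G and in 7 for Y641F against H689A/F667I, while 9.84% and 11.1% of all bins of the genome did, so that the counts were near the background. Of the 8, bins 13 to 17 and 19 of chromosome 13 were higher in Y641F, and bin 13 of chromosome 3 and bin 16 of chromosome 18 lower.

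The strength of regions that stayed open was compared through the fold over local background in the 1963 regions open in all 8 libraries, with limma over all 18787 such regions of the genome. In Y641F, 19 passed an adjusted p of 0.05 with a higher fold and 9 with a lower one, while 0.852% and 0.378% of all regions tested were higher and lower. These counts, 0.968% and 0.458% of the 1963, were near that background. In A677G and in H689A/F667I 0 passed in limma, while 323 and 196 had an unadjusted limma p under 0.05. The Y641F calls were near the threshold, with adjusted p from 0.0428 to 0.0497, and leaving out any 1 library left 0 or 1. Without centring on the median of each library the split was 12 higher and 109 lower, and quantile scaling left 1 call, in FNDC3B.

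Of the 19 regions with a higher fold 15 were promoters, where 53.1% of the 1963 regions tested were, a difference that was not tested. The promoter shared by BIVM and POGLUT2, a protein glucosyltransferase, at chr13:102798703-102800853, had folds of 3.75 and 3.57 in WT, 6.01 and 5.01 in H689A/F667I, 4.46 and 5.46 in A677G and 5.29 and 5.72 in Y641F, so that all mutant libraries were above WT. Its log2 change in Y641F was 0.74 (SE 0.13, limma adjusted p = 0.0428). CDX2, a homeobox gene of the intestine, had 3.57 and 3.05 in WT, 4.72 and 3.66 in H689A/F667I, 3.74 and 4.03 in A677G and 4.84 and 4.89 in Y641F, with a change of 0.71 in Y641F. Next came TOP2B, a DNA topoisomerase, at 0.64, MYCBP2, a ubiquitin ligase, at 0.62 and PCDH20, a protocadherin in bin 13 of chromosome 13, at 0.60. PCDH20 went from 4.93 and 5.79 in WT to 5.97 and 6.18 in H689A/F667I, 6.57 and 7.23 in A677G and 7.37 and 7.27 in Y641F. SPRY2, GATA6, an endodermal factor, SMAD7, an inhibitor of TGF-beta signalling, CDH2 (N-cadherin), SLITRK5 and ZIC2 were among the others.

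Of the 9 regions with a lower fold, 7 lay outside promoters. A region in an intron of FNDC3B, an adipocyte regulator, at chr3:172331839-172332855, had folds of 6.46 and 5.67 in WT, 3.15 and 3.39 in H689A/F667I, 3.60 and 3.61 in A677G and 3.09 and 3.48 in Y641F. The WT libraries were clear of all 6 mutant libraries, and the log2 change was -0.74 in Y641F (SE 0.11, limma adjusted p = 0.0428), -0.68 in A677G (adjusted p = 0.121) and -0.84 in H689A/F667I (adjusted p = 0.0963). An intron of NCEH1, a cholesterol ester hydrolase close by at chr3:172666836-172667544, had 6.64 and 7.73 in WT, 6.0 and 4.78 in H689A/F667I, 4.11 and 4.20 in A677G and 3.84 and 3.94 in Y641F. Regions in an intron of ZBTB38, a methyl-CpG binding protein, and near XRN1, an exoribonuclease, changed by -0.61 and -0.60. The promoters were those of MTUS2, a microtubule-associated protein, at -0.61, and TFDP1, a partner of E2F factors, at -0.52. TFDP1 had 5.75 and 5.54 in WT, 5.27 and 5.83 in H689A/F667I, 5.40 and 5.40 in A677G and 3.52 and 3.57 in Y641F.

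**Figure D5:**
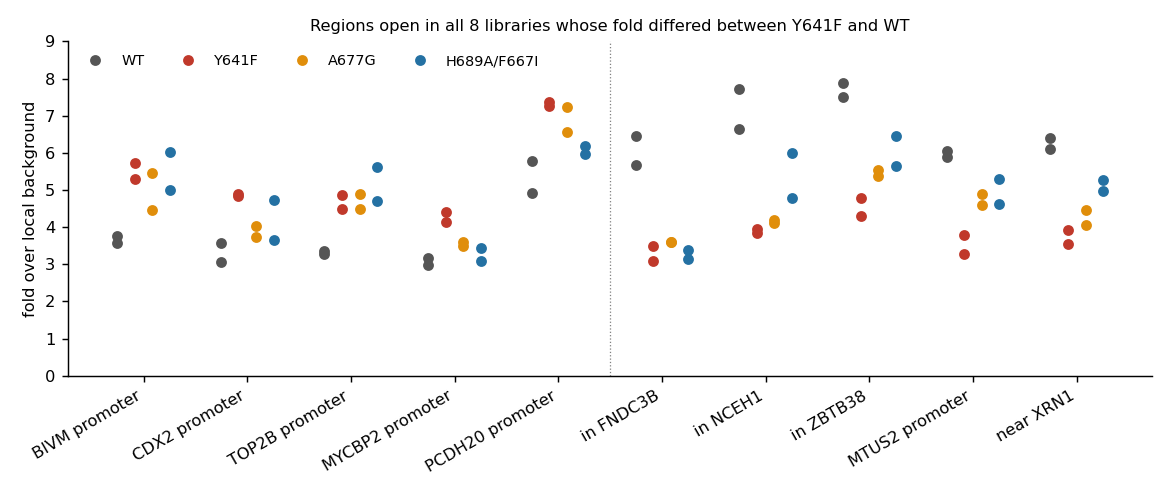
Fold over local background (y axis, linear) in each of the 8 libraries, coloured by line, for the 5 regions with the largest rise and the 5 with the largest fall in Y641F. In the FNDC3B intron the WT points, 6.46 and 5.67, stand above all mutant points, and in the BIVM promoter the WT points, 3.75 and 3.57, lie below all of them.

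Regions open in all WT and H689A/F667I libraries and closed in all Y641F and A677G libraries, the pattern that separates GOF from the other lines, numbered 151, or 2.01% of the 7515 against 2.04% of all kept regions. They lay 95 on chromosome 3, 28 on chromosome 13 and 28 on chromosome 18, and comprised 71 introns, 55 intergenic regions, 14 exons and 11 promoters. The opposite pattern, open in the GOF libraries alone, had 0 regions. The share was thus that of the genome.

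The strongest of them had folds well within the range of regions that stayed open. The FOXP1 intron had 5.62 and 5.49 in WT and 4.17 and 5.15 in H689A/F667I. A promoter of DRD3, a dopamine receptor (chr3:114178825-114179100), had 5.22 and 5.31 in WT and 4.33 and 4.53 in H689A/F667I. The region upstream of FREM2 had 7.85 and 6.21 in WT and 5.59 and 7.04 in H689A/F667I, the highest of the 151. On chromosome 13 an exon of EBPL and start regions of STK24, a kinase, and DOCK9, a Cdc42 activator, followed, with a region near CFAP97D2. Another promoter of DOCK9, chr13:99086170-99088149, was open in all 8 libraries and among the 19 with a higher fold in Y641F. It had 3.72 and 3.70 in WT and 4.88 and 5.13 in Y641F. The MAPK4 intron had 4.16 and 5.12 in WT and 4.23 and 4.11 in H689A/F667I, followed by regions near CDH7, in SETBP1, at FECH, of haem synthesis, and in CELF4. Others of chromosome 3 were introns of non-coding genes nearest to ARHGEF26, CCDC54 and WNT5A, a Wnt ligand 182552 bp away.

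Promoters were then counted by gene group. Of 35 tumour suppressors and oncogenes, 33 were open in all 8 libraries and 0 were lost in a line, where 6.11%, 1.85% and 1.93% of all WT-open promoters of these chromosomes were. Among them VHL, a ubiquitin ligase subunit, had folds of 3.48 and 4.01 in WT and 3.48 and 3.65 in Y641F, RB1, the retinoblastoma gene, 4.19 and 4.62 against 5.16 and 4.39, and BRCA2, of DNA repair, 4.89 and 4.42 against 4.09 and 4.36. DCC, a netrin receptor, was closed in all 8. Of 30 genes of ribosomes, translation and protein turnover, 28 were open in all 8, and RPL17, a ribosomal protein, was lost in A677G and in H689A/F667I but had 4.79 and 3.65 in Y641F, which is 3.45% of the 29 open in WT in either line.

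Of 40 developmental transcription factors, 30 were open in all 8. ZIC1, of the nervous system, was lost in Y641F, with folds of 4.51 and 3.8 in WT, 3.46 in 1 A677G library and 4.11 and 4.93 in H689A/F667I. NFATC1 was lost in Y641F too. TP63, ZIC4, FOXL2 and SOX1 were closed in all 8. SOX2, a pluripotency factor, and GATA2, of blood development, were open throughout, SOX2 with 3.17 and 3.4 in WT and 3.12 and 3.45 in Y641F. Of 43 genes of cell adhesion and axon guidance, 29 were open in all 8. CNTN3, CHL1, PLXNB1 and CDH20 were lost in Y641F, 10.5% of the 38 open in WT. In A677G 1 of the 38 (2.63%) was lost and in H689A/F667I 3 (7.89%). Of all WT-open promoters of these chromosomes, 6.11%, 1.85% and 1.93% were lost in Y641F, A677G and H689A/F667I. PLXNB1, a semaphorin receptor, was lost in all 3 mutants from weak WT peaks of 2.86 and 2.64. It was kept through WT alone, so its loss in every mutant is fixed by the choice of members. CNTN6, POSTN, CDH19, DCC and NETO1 were closed in all 8.

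Of 108 genes that the study listed as shared GOF targets, 7 lay on chromosome 3, 2 on chromosome 18 and 0 on chromosome 13. All 9 promoters were open in all 8 libraries. That list was chosen partly on these libraries, so it is no independent evidence of a direction. RFTN1, a lipid raft protein, had folds of 5.82 and 6.49 in WT, 5.53 and 5.95 in H689A/F667I, 5.00 and 5.91 in A677G and 3.81 and 4.80 in Y641F. GASK1A had 5.78 and 4.81 in WT, 4.60 and 4.21 in H689A/F667I, 3.64 and 4.27 in A677G and 3.91 and 3.4 in Y641F, so both of its GOF pairs were below WT. BOC, a hedgehog co-receptor, had 3.49 and 3.69 in WT and 2.96 and 3.12 in Y641F, and TMEM108 had 4.78 and 4.68 in WT and 6.71 and 4.67 in Y641F. None of the 9 was among the regions past the limma test.

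The sequence around the centre of the regions, 200 bp, differed between lost and retained regions as promoters and other regions do. Regions lost in Y641F had a median GC content of 45.5% and those retained 57.5%. The SP/KLF letters GGGCGGG were found in 3.26% of the lost and 18.7% of the retained regions (11.2% of all kept regions of the genome), and in 28.7% of promoters and 2.73% of other regions. The AP-1 letters TGANTCA were found in 10.3% of the lost and 5.31% of the retained regions, with 7.01% genome-wide. The GATA letters AGATAA were found in 20.5% of the 151 regions closed in the GOF lines and 12.4% of all 7515, with 10.2% genome-wide. Of the 151, 140 lay outside promoters, and the share was 14.5% of all regions outside promoters on the 3 chromosomes and 4.02% of promoters. The 1110 regions with that pattern on other chromosomes held them in 11.2%, so the share was not as high there. The TEAD letters CATTCCA and the CTCF letters CCANNAGGG were found in 3.05% and 5.68% of the 7515, against 3.36% and 6.71% genome-wide. A match of letters is not a bound site.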

How the data were processed

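ATAC-seq was run on 4 HEK293T lines with 2 libraries each, and 1 broad peak list per library was analysed. Per the submitters' processing notes the authors used Trim Galore 0.6.5, BWA 0.7.17, deepTools 3.5.1 and MACS2 2.2.7.1 with GRCh38 (hg38), and duplicates were removed. The Tn5 shift, the treatment of mitochondrial reads and the background of the peak calls are not given in the sources used here. The deposited column 7 is a ratio, the fold of the pileup over local background. The deposited columns 8 and 9 hold −log10 p and q values, of which q was used in an alternative, and the deposited score column was not used. The lists hold no read counts, so the depth per sample is unknown, the count test of the study was not run, and a library's precision is known only by its number of peaks.

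Peaks that shared at least 1 bp were merged over the 8 lists on chromosomes 1 to 22 and X. Regions were placed in 5 Mb bins by their centre, and annotated with the genes of the hg38 reference, promoters first, then exons, introns and intergenic sequence. Where several peaks of a list fell in a region, the highest fold was used. Shares have 95% Wilson intervals. Shares per bin (0.5 regions added, a mean of at least 10 regions) and folds in regions open in all 8 libraries (centred on each library's median) were tested on the log2 scale with limma 3.58.1 in R 4.3.3, with all lines in 1 fit, an intensity trend and Benjamini-Hochberg adjustment over the genome at 0.05. Shares per chromosome and arm were compared by exact permutation. Python 3.11.15, pandas 2.3.3 and scipy 1.17.1 were used. The procedure was tested on simulated data.

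Named genes were those with an open WT promoter in the 2 bins of highest and the 2 of lowest loss per chromosome (up to 6 a bin, by lines that lost them, then WT fold), those of the gene lists, the 5 strongest regions per chromosome closed in the GOF lines alone, and up to 5 regions per direction past the test of fold. Genes outside this rule (SALL3, SLITRK5, ROBO1 and the like in the bins described) are named from the lists or were chosen after their values were seen. The members and lists were chosen with earlier results of these data known. Replicate numbers did not pair the libraries (see the alternatives). Limma p-values measure the spread between the 2 libraries of a line, with 1 spread shared by all lines. The exact permutation exchanges single libraries, although libraries of a line are not independent lines. Copy number was not analysed here. Alternatives were a −log10 q of at least 5, equal peak number, 50% cover, a merging gap of 1 kb, at least 3 lists, 10 Mb bins, a promoter window of 2.5 kb, other scalings and filters, a replicate block and leaving out each library. Loss without regions kept through the WT lists alone was added by class and bin after the data were seen. A few genes that the rules would have named are not reported here.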

Additional observations from a re-analysis of the deposited data

Results flagged for a closer look

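The share of a library's open regions on chromosome 13 moved up from WT in both Y641F libraries, by a mean of 0.189 percentage points, and down in both A677G libraries, by -0.265 points, and both H689A/F667I libraries, by -0.120 points. This stood out because every library of Y641F moved one way and every library of the other mutants the opposite way, and the difference between the mutants was not tested at the level of the chromosome.

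In 5 Mb bins the difference between 2 mutants' changes from WT was tested as a contrast of the same limma fit, chosen after the data were seen, at an adjusted p of 0.05. Y641F minus A677G was positive in 6 bins of chromosome 13, with log2 values of 0.243 in bin 13, 0.435 in bin 14, 0.365 in bin 15, 0.402 in bin 16, 0.303 in bin 17 and 0.280 in bin 19. It was negative in bin 13 of chromosome 3, at -0.343, and in bin 16 of chromosome 18, at -0.520. Y641F minus H689A/F667I was positive in bins 11, 13, 14, 15, 17 and 22 of chromosome 13, at 0.272, 0.278, 0.289, 0.237, 0.290 and 0.708, and negative in bin 15 of chromosome 3, the FOXP1 bin, at -0.393. These bins are 8 and 7 of the 74 tested, near the 9.84% and 11.1% of all bins of the genome. The Y641F libraries also had the fewest peaks, and the part of peak number in these differences was not tested.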

How the results depend on the processing

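Loss shares are given in the order Y641F, A677G, H689A/F667I. At a stricter q, a −log10 q of 5 or more, loss was 43.7%, 30.6% and 22.2% on chromosome 3, 46.9%, 37.9% and 26.6% on chromosome 13, 48.1%, 33.0% and 22.5% on chromosome 18, 47.4%, 33.2% and 24.1% on 3p, 40.4%, 28.4% and 20.6% on 3q, 55.1%, 40.8% and 26.5% on 18p and 46.6%, 31.4% and 21.6% on 18q. Promoters were then 34.3%, 26.9% and 26.8% of lost and 73.2%, 69.9% and 64.8% of retained regions. The GOF difference in share changed sign there, to 0.286 points on chromosome 3, -0.0221 on chromosome 13, 0.289 on 3q, -0.0466 on 18p and 0.0418 on 18q, 9, 1 and 0 bins were called, and 9 folds in Y641F. With equal peak number, loss was 12.6%, 8.27% and 7.40% on chromosome 3, 11.7%, 9.36% and 6.43% on chromosome 13, 11.1%, 7.0% and 8.45% on chromosome 18, 15.4%, 9.45% and 8.84% on 3p, 10.1%, 7.19% and 6.09% on 3q, 6.56%, 11.5% and 3.28% on 18p and 12.1%, 6.03% and 9.57% on 18q, and promoters were 10.7%, 11.8% and 17.1% of lost and 58.8%, 56.1% and 54.5% of retained regions. Shares then reversed to 0.000398 points on chromosome 3, 0.057 on chromosome 18, 0.12 on 3q, -0.00243 on 18p and 0.0594 on 18q, with 10 bins called in Y641F and 0 in A677G. With 50% cover, loss was 50.5%, 37.2% and 27.3% on chromosome 3, 51.1%, 42.3% and 29.3% on chromosome 13, 51.9%, 36.4% and 28.2% on chromosome 18, 52.7%, 39.7% and 29.6% on 3p, 48.5%, 35.0% and 25.3% on 3q, 46.7%, 38.3% and 26.7% on 18p and 53.0%, 36.0% and 28.5% on 18q. With at least 3 lists, it was 30.5%, 14.6% and 6.27% on chromosome 3, 27.9%, 17.9% and 8.23% on chromosome 13, 31.1%, 14.8% and 8.04% on chromosome 18, 32.3%, 14.5% and 7.07% on 3p and 29.0%, 14.6% and 5.63% on 3q, the setting that drops regions kept through WT alone. A promoter window of 2.5 kb gave promoter shares of 13.1%, 10.6% and 10.6% of lost regions, and of retained regions 43.6% in A677G and 39.1% in H689A/F667I. The cause of these shifts was not tested.

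Calls in A677G fell to 3 bins with 10 Mb bins, 4 with a mean of at least 1, 3 with scaling to the median bin and 3 with the replicate block, and in H689A/F667I changed to 2 with 10 Mb bins and 0 with a mean of at least 1. The replicate block left 16 bins called in Y641F and 1 in H689A/F667I, and 23 folds in Y641F, but the numbers share only a label: the deviations of same-numbered libraries correlated between -0.0735 and 0.113 over bins. Calls of fold in Y641F were 121 without centring, 1 with quantile scaling and 17 with a width-weighted mean. Of the named bins in Y641F, bins 8, 12 and 14 of chromosome 3 reversed to 0.085, 0.0956 and 0.186 and bin 17 of chromosome 13 to -0.286 at the stricter q, and bin 10 of chromosome 3 to -0.0634 with equal peak number. Merging within 1 kb moved no loss beyond its interval.

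With 1 library left out at a time, loss ranged over 34.6% to 57.2%, 18.4% to 39.8% and 8.91% to 28.0% on chromosome 3, 32.6% to 56.3%, 22.9% to 43.4% and 12.7% to 31.7% on chromosome 13 and 36.0% to 57.8%, 19.6% to 39.3% and 10.7% to 27.6% on chromosome 18, higher by construction where a mutant is judged by 1 library. The GOF difference ranged from -0.336 to -0.121 points on chromosome 3, -0.0639 to 0.103 on chromosome 13, with reversed values of -0.0639, -0.0391, -0.00857 and -0.00174, -0.0654 to -0.00831 on chromosome 18, -0.257 to -0.104 on 3p, -0.0809 to 0.00729 on 3q, with reversed values of 0.000531 and 0.00729, -0.00127 to 0.0134 on 18p and -0.0641 to -0.0189 on 18q. Bins called ranged from 0 to 19 in Y641F, 0 to 17 in A677G and 0 to 10 in H689A/F667I, a line left with 1 library being assumed to vary like the others, and folds called from 0 to 1 in Y641F and 0 in the other lines by limma. Peak number is the sole measure of depth.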
